A study of Mus musculus with 12 samples.

Results

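ZFP57 and KAP1 occupancy were compared in A3, a wild-type mouse embryonic stem cell line of strain 129X1/SvJ. The comparison used 2 lists of chromatin immunoprecipitation peaks, with 1485 peaks for ZFP57 and 10295 for KAP1. These 11780 peaks were taken from the A3 lists by name, out of 13716 in the 4 lists used. No measured value entered that rule, but the lists were chosen with earlier results of these data known. The other 1936 peaks are of ZFP57 and KAP1 in E14, a wild-type line of strain 129P2/OlaHsd, and served as a second readout of the same places. Both lines were grown without feeder cells in serum with leukemia inhibitory factor, crosslinked with formaldehyde and sheared before immunoprecipitation with an anti-ZFP57 or an anti-KAP1 antibody. The series also holds input and H3K9me3 libraries and A3 cells of genotype Zfp57-/-, which were not analysed here. There was 1 library per protein and line, so no value below has a replicate error and no difference between libraries could be tested. The intervals are 95% exact Clopper-Pearson intervals over peaks, which cover counting error only. A peak is a called interval with no score, so a call says where a signal passed the authors' threshold and not how strong it was.

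ZFP57 belongs to the KRAB zinc finger proteins. It is known to bind the sequence TGCCGC when its CpG is methylated, and to keep DNA methylation in place at imprinted control regions, the elements whose methylation differs between the maternal and paternal copy and sets which copy of nearby genes is expressed. KAP1, also named TRIM28, is a corepressor brought to DNA by the KRAB domain of such proteins, and it is known to recruit SETDB1, which deposits H3K9me3. Many other KRAB zinc finger proteins recruit KAP1 in embryonic stem cells, mostly to repeats. The peak lists carry no gene names. Control regions were therefore named from background knowledge of where they lie in mm9, as 23 windows of 10 to 80 kb written with earlier results of these data known, and the names are not independent evidence.

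The hexamer is shown in its promoter context for 5 genes whose start is known to lie inside a control region. The windows are RefSeq promoter sequences of build GRCm38.p6, 300 bases around the start, with TGCCGC or its reverse complement GCGGCA in capitals. The files are in mm9, so whether a peak covers these exact bases was not tested. Nnat (chr2:157559828-157560127, plus strand), Snrpn (chr7:60005150-60005449, minus strand) and Plagl1 (chr10:13090582-13090881, plus strand) belong to control regions with both proteins in A3. Mest (chr6:30737800-30738099, plus strand) belongs to one with KAP1 alone, and Nap1l5 (chr6:58907077-58907376, minus strand) to one with neither.
Nnat: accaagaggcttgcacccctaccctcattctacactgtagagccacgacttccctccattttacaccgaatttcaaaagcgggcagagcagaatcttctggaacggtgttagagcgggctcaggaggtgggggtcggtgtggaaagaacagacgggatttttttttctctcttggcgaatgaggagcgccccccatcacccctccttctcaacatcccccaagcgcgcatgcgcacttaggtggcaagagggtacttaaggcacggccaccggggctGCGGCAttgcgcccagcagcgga
Snrpn: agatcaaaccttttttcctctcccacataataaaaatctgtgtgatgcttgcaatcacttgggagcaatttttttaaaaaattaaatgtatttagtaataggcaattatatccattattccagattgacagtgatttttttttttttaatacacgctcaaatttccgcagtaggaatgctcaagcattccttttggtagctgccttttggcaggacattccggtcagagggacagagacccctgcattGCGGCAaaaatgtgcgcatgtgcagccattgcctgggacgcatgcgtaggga
Plagl1: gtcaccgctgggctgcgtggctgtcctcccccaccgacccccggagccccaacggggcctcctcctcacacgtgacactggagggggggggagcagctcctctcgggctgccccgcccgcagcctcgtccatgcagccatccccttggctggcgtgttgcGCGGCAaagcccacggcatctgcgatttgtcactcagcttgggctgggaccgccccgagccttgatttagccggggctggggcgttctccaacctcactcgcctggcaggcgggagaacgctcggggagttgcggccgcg
Mest: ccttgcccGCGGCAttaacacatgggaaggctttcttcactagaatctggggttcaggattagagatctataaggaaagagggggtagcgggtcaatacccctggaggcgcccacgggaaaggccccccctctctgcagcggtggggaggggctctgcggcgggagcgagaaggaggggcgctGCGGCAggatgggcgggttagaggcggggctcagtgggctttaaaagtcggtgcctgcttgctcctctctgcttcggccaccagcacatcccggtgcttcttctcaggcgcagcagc
Nap1l5: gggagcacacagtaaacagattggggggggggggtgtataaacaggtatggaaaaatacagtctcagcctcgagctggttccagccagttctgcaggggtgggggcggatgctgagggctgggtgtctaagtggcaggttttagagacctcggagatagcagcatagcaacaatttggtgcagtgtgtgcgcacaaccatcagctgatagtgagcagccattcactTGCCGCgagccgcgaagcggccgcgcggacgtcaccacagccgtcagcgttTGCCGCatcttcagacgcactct

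In these windows Nnat, Snrpn and Plagl1 held the hexamer 1 time each, and Mest and Nap1l5 held it 2 times each. Across all 32851 RefSeq promoter windows of the same length, 11.6% held at least 1 match on either strand. The count by gene took 10 genes chosen by hand, whose start is known to lie inside a control region. Matches were found in 3 of 5 at regions with both proteins in A3 and in 3 of 5 at the other regions. Other genes named for control regions, such as Gnas, Grb10 and Slc38a4, were left out, so the count is not over all regions. A gene counted if any of its windows held a match, over 15 windows in all. These counts per gene are thus not comparable with the 11.6% per window. Peg3 and Kcnq1ot1 had both proteins and no match in this window, which says nothing of the rest of the region. The match is a description of letters and not a binding site.

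ZFP57 and KAP1 were called at the same place, with at least 1 bp shared, at 63 loci. That made 4.24% of the ZFP57 list (3.28 to 5.40%) and 0.612% of the KAP1 list (0.471 to 0.782%). With at least 50% of both peaks shared there were 60 (4.04%), and 78 ZFP57 peaks (5.25%) lay no more than 1 kb from KAP1. Each of the 63 ZFP57 peaks met exactly 1 KAP1 peak and the reverse, so the loci are 63 one-to-one pairs. The other 1422 ZFP57 peaks and 10232 KAP1 peaks had no overlap with the other protein. The pairs shared 37050 bp, which was 5.20% of the sequence under ZFP57 peaks and 0.608% of that under KAP1 peaks. Most calls of either protein in A3 therefore stood alone.

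Where both proteins were called, the intervals nearly coincided. The pairs were picked by overlap, which itself limits how far edges and midpoints can differ at these widths. Peak edges lie on a grid of 150 bp, and 24 of the 63 pairs (38.1%, 26.1 to 51.2%) had both edges on the same grid lines. In 30 pairs (47.6%, 34.9 to 60.6%) the ZFP57 peak lay inside a wider KAP1 peak, in 5 the KAP1 peak lay inside the ZFP57 peak, and 4 were staggered. The shared part covered a median of 100% of the ZFP57 peak (range 50 to 100%) and 88.9% of the KAP1 peak (range 37.5 to 100%). KAP1 was the wider peak in 31 pairs, ZFP57 in 6, and the widths were equal in 26. The median width ratio of KAP1 to ZFP57 was 1 (range 0.667 to 2.67), and in 50 pairs the widths differed by no more than 1 grid step.

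The midpoints were equally close, within the limit that overlap sets. How much of this closeness follows from the overlap rule was not tested. They were identical in 30 pairs, 75 bp apart in 24, 150 bp apart in 4 and 225 bp apart in 5, so 58 of 63 pairs (92.1%, 82.4 to 97.4%) had midpoints within 150 bp. The KAP1 midpoint lay at the lower coordinate in 21 pairs and at the higher in 12, and 75 bp is the smallest offset above 0 that the grid allows. The aligned map of the pairs shows both patterns.

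**Figure D1:**
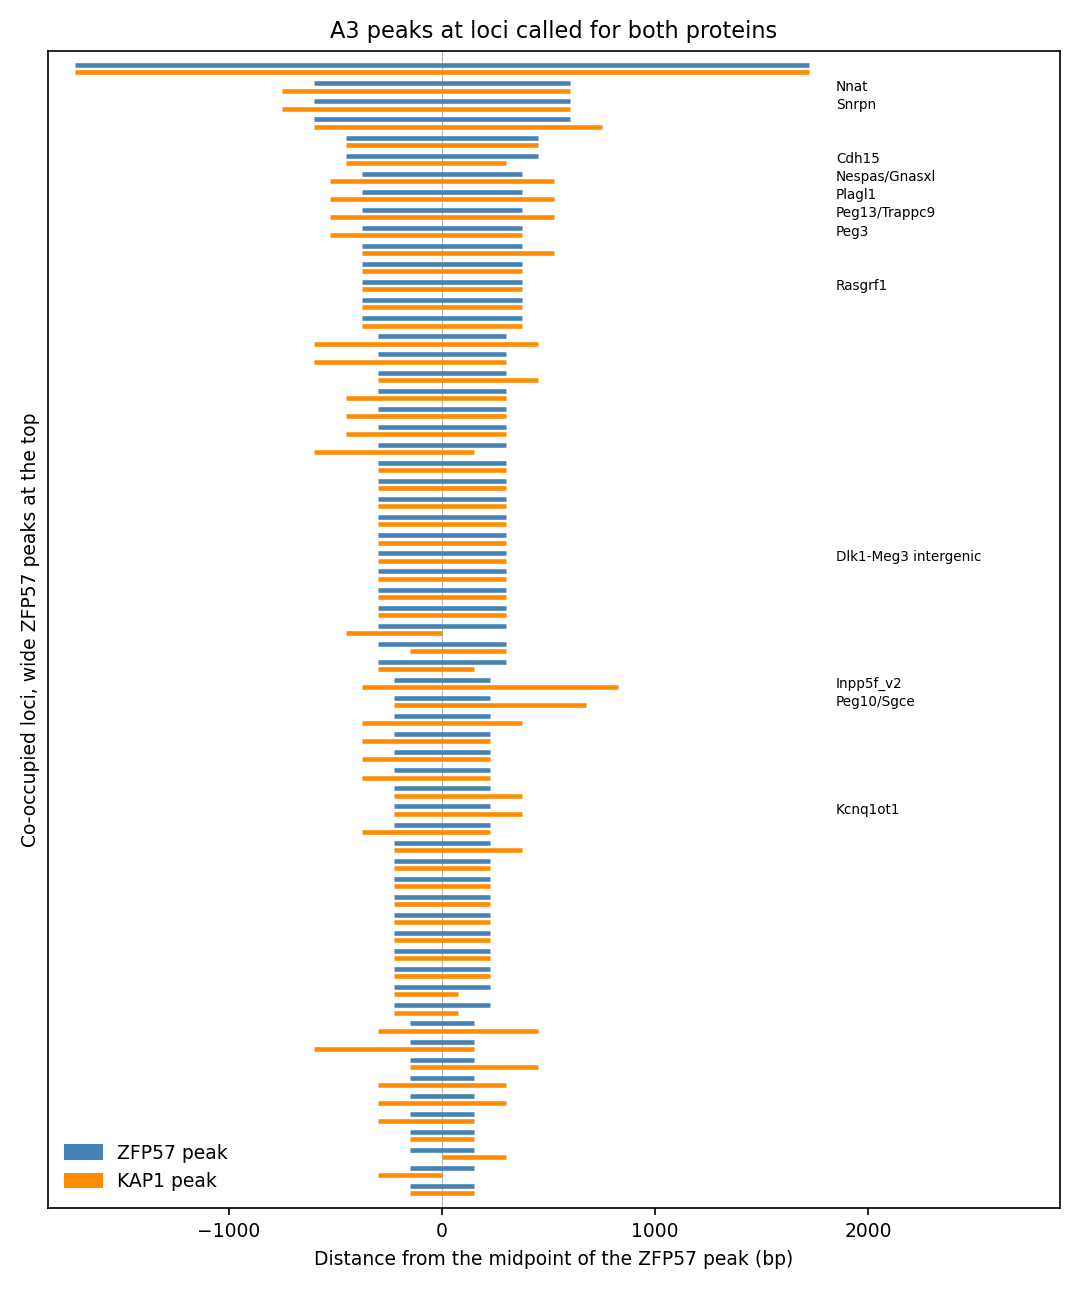
Each row is 1 of the 63 loci called for both proteins in A3, with the ZFP57 peak in blue and the KAP1 peak in orange, drawn to scale in bp from the ZFP57 midpoint and ordered by ZFP57 width; names mark the 12 loci in imprinted control region windows. The peaks share most of their length, and KAP1 is the wider peak in 31 rows.

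The 5 pairs with the largest midpoint offset, 225 bp, included 2 control regions. At Peg10/Sgce on chromosome 6 the ZFP57 peak ran from 4697701 to 4698150 and the KAP1 peak from 4697701 to 4698600. At Inpp5f_v2 on chromosome 7 the ZFP57 peak of 450 bp (135831301 to 135831750) lay inside a KAP1 peak of 1200 bp (135831151 to 135832350), the highest width ratio of any pair at 2.67. The other 3 had KAP1 shifted to the lower coordinate. Their ZFP57 peaks ran from 87485251 to 87485850 on chromosome 2, from 66538651 to 66538950 on chromosome 13 and from 10187551 to 10188150 on chromosome 16.

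Every A3 ZFP57 peak in an imprinted control region window carried KAP1. The windows were written with earlier results of these data known, so the shares below are not independent evidence. In A3, 12 of the 23 windows (52.2%, 30.6 to 73.2%) held a ZFP57 peak, and all 12 of those peaks overlapped KAP1, beside 4.24% of all A3 ZFP57 peaks and 51 of the 1473 outside the windows (3.46%, 2.59 to 4.53%). These 12 regions were Nnat, Nespas/Gnasxl, Peg10/Sgce, Peg3, Snrpn, Inpp5f_v2, Kcnq1ot1, Cdh15, Rasgrf1, Plagl1, the Dlk1-Meg3 intergenic region and Peg13/Trappc9. They comprised 10 of 19 maternally methylated regions and 2 of 4 paternally methylated ones, Rasgrf1 and Dlk1-Meg3. Their ZFP57 peaks had a median width of 750 bp, against 300 bp for the whole A3 ZFP57 list. ZFP57 peaks with KAP1 were wider than that list in general, with a median of 600 bp over all 63 pairs. Over the 51 pairs outside the windows it was 450 bp. Each of the 12 windows held a single ZFP57 peak.

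The widest ZFP57 calls at control regions were those of Nnat and Snrpn. At Nnat, which encodes the neuronal protein neuronatin and is expressed from the paternal copy, ZFP57 covered 157385251 to 157386450 on chromosome 2, a width of 1200 bp, inside a KAP1 peak of 1350 bp. Snrpn encodes a splicing protein, and its control region governs the cluster whose human counterpart is affected in Prader-Willi syndrome. ZFP57 lay there at 67149001 to 67150200 on chromosome 7, also 1200 bp inside 1350 bp, and at both loci KAP1 began 1 grid step earlier and ended at the same position.

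The commonest control-region width for ZFP57, 750 bp, was seen at 5 regions. KAP1 reached 1 step past ZFP57 on each side at Nespas/Gnasxl, the promoter region of the imprinted Gnas cluster (chromosome 2, ZFP57 174121201 to 174121950), at Plagl1, a zinc finger gene (chromosome 10, 12810451 to 12811200), and at Peg13/Trappc9, a non-coding RNA in an intron of its host (chromosome 15, 72640051 to 72640800). KAP1 was 1050 bp wide at each. At Peg3, a zinc finger gene expressed from the paternal copy (chromosome 7, 6681751 to 6682500), the KAP1 peak was 900 bp and began 1 step earlier. At Rasgrf1, which encodes an exchange factor for Ras (chromosome 9, 89774251 to 89775000), both peaks had the same edges.

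Cdh15, a cadherin gene, was the only one of the 12 where ZFP57 was wider than KAP1, with 900 bp (chromosome 8, 125388751 to 125389650) against 750 bp. A second KAP1 peak without ZFP57 lay in the same window at 125394301 to 125394900. The Dlk1-Meg3 intergenic region on chromosome 12 had identical peaks of 600 bp at 110766301 to 110766900. At Kcnq1ot1, the non-coding RNA that silences neighbouring genes on the paternal copy, ZFP57 covered 450 bp (chromosome 7, 150481351 to 150481800) and KAP1 600 bp.

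In 3 windows A3 had KAP1 and no ZFP57. At Mest, a gene expressed from the paternal copy, the KAP1 peak (chromosome 6, 30687751 to 30688500) overlapped the place called for ZFP57 in E14, 30687151 to 30688050. The nearest A3 ZFP57 peak to that E14 peak was 125 kb away. At Zrsr1/Commd1 the A3 KAP1 peak at 22871701 to 22872150 on chromosome 11 also met the E14 ZFP57 peak, and a second lay at 22867351 to 22867950. At Zdbf2/Gpr1 the A3 KAP1 peak (chromosome 1, 63265801 to 63266250) lay 18.8 kb from the E14 ZFP57 peak and did not overlap it.

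The remaining 8 windows, 34.8% (16.4 to 57.3%), held neither protein in A3. In 6 of them, Mcts2/H13, Nap1l5/Herc3, H19, Grb10, Igf2r/Airn and Impact, E14 had overlapping peaks of both. H19, the non-coding RNA next to Igf2, had 2 such pairs in E14, at 149765851 to 149766450 and from 149767501 on chromosome 7, and the nearest A3 ZFP57 peak was 713 kb away. The nearest A3 ZFP57 peaks to the E14 calls at the other 5 were 301 kb away at Nap1l5/Herc3, 323 kb at Igf2r/Airn, 795 kb at Impact, 922 kb at Mcts2/H13 and 1625 kb at Grb10. The nearest A3 KAP1 peaks to the 6 regions were closer, at 14.4 kb for Mcts2/H13, 68.2 kb for Impact, 82.8 kb for Grb10, 88.0 kb for H19, 168 kb for Nap1l5/Herc3 and 177 kb for Igf2r/Airn. The A3 KAP1 list is also the longer, with 10295 peaks against 1485 for ZFP57, and such gaps move with list length. The lists carry no score, so whether signal at these regions lay just under the threshold was not tested. Gnas exon 1A and Slc38a4 had no peak in any list. In E14, 21 of the 23 windows (91.3%, 72.0 to 98.9%) held both proteins in overlap. The difference from A3 was not tested, and with 1 library per protein and line, line and library cannot be told apart.

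**Figure D2:**
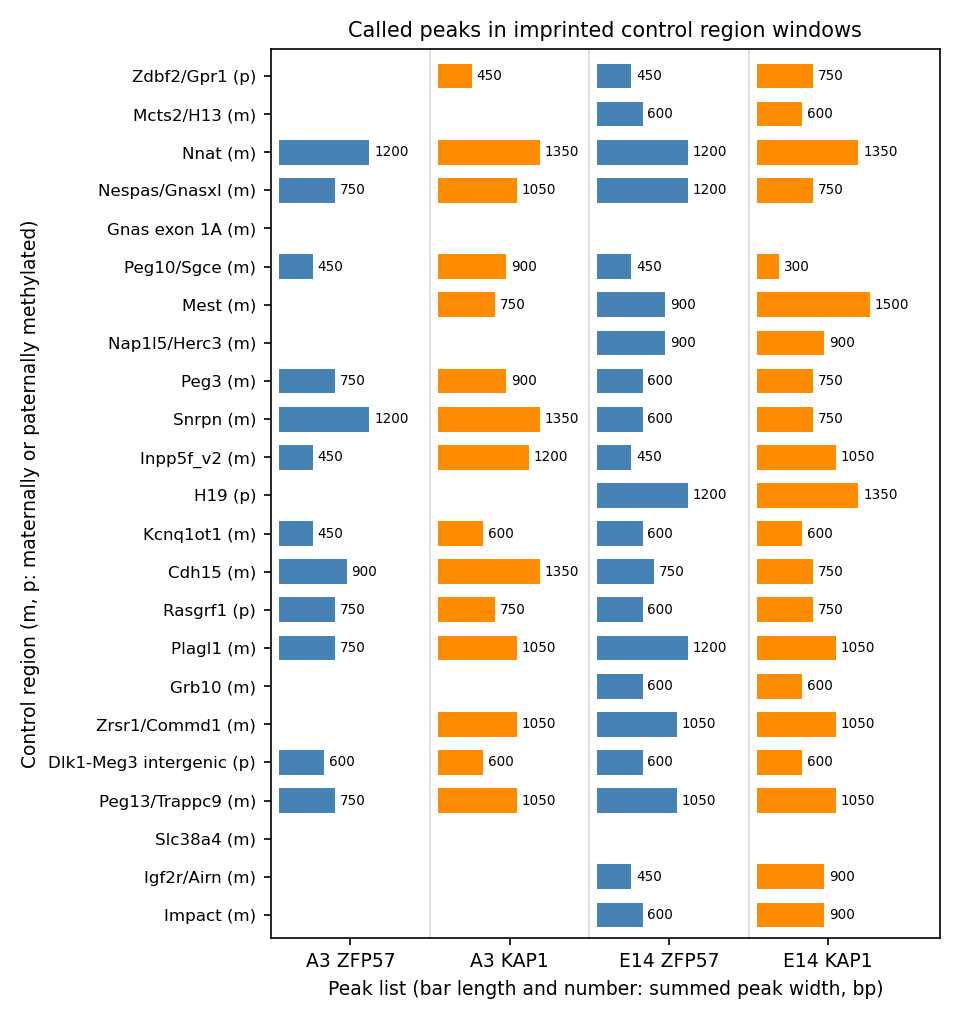
Rows are the 23 imprinted control region windows and columns the 4 peak lists; bar length and number give the summed width of called peaks in bp, and blank cells hold no peak. In A3, 12 rows have both proteins, 3 have KAP1 alone and 8 have neither, while 21 rows have both in E14.

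The E14 lists, which did not enter the choice of pairs, had calls at most A3 loci with both proteins. Of the 63 pairs, 38 met an E14 ZFP57 peak (60.3%, 47.2 to 72.4%), where 3.77% of all A3 ZFP57 peaks did, and 42 met an E14 KAP1 peak (66.7%, 53.7 to 78.0%), where 4.44% did. All 38 also met E14 KAP1, beside 3.43% of the whole A3 ZFP57 list with both E14 peaks. Among A3 ZFP57 peaks without KAP1 the share with an E14 ZFP57 peak was 18 of 1422 (1.27%, 0.752 to 1.99%). All 12 pairs at control regions recurred for both proteins in E14, and of the other 51 pairs 26 did (51.0%, 36.6 to 65.2%).

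This contrast was present within each class of ZFP57 width. Among peaks of 300 bp, E14 ZFP57 was called at 2 of 10 with KAP1 and at 0 of 792 without, where a limit of 3 counts is 0.379% and the exact interval reaches 0.465%. At 450 bp the numbers were 9 of 19 (47.4%, 24.4 to 71.1%) and 2 of 375 (0.533%, 0.0647 to 1.91%). At 600 bp they were 12 of 19 (63.2%, 38.4 to 83.7%) and 9 of 140 (6.43%, 2.98 to 11.9%). At 750 bp or more they were 15 of 15 (the interval reaches down to 78.2%) and 7 of 115 (6.09%, 2.48 to 12.1%). In each of these 4 classes the intervals with and without KAP1 did not overlap, and no test was run, since peaks are not replicates.

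Pairs with identical edges met E14 ZFP57 at 14 of 24 (58.3%, 36.6 to 77.9%) and the rest at 24 of 39 (61.5%, 44.6 to 76.6%), and intervals this wide leave room for a difference either way. Pairs in which ZFP57 was the wider peak recurred at 2 of 6 and those in which KAP1 was wider at 22 of 31 (71.0%, 52.0 to 85.8%), with wide and overlapping intervals. On the sex chromosomes 1 of 5 pairs recurred, on chromosome X at 120964801 to 120965250.

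Outside the control region windows, 7 pairs had a ZFP57 peak of at least 750 bp, and all 7 had both proteins in E14. The widest lay on chromosome 9 at 2999851 to 3003300, a width of 3450 bp with identical edges for both proteins. The next ZFP57 peak on that chromosome began at 3003751, was 3900 bp wide and had no KAP1, and whether this stretch reflects binding was not tested. Then came chromosome 7 at 134754601 to 134755800, with 1200 bp for ZFP57 and 1350 bp for KAP1, and chromosome 18 at 74520001 to 74520900, with 900 bp for both. Another 3 loci had ZFP57 peaks of 750 bp with the same edges for KAP1, starting at 140379301 on chromosome 4, 47106001 on chromosome 13 and 6324451 on chromosome 17. The last, on chromosome 10 at 79201801 to 79202550, had a KAP1 peak of 900 bp. The lists give no gene at these positions, and none is named here.

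A further 19 pairs outside the windows recurred for both proteins with narrower ZFP57 peaks. Chromosome 12 held 5 of them, starting at 3589951, 22155451, 22742101, 72342901 and 75226801, and chromosome 11 held 3, starting at 17108251, 19920601 and 115302751. The remaining 25 pairs had no E14 ZFP57 peak. At 4 of these, on chromosome 6 from 67613401, chromosome 13 from 66538651, chromosome 14 from 91335301 and chromosome 15 from 37132801, E14 had KAP1 without ZFP57. The other 21 pairs were called in A3 alone, among them both pairs on chromosome 1, at 33990451 to 33991050 and 85231201 to 85231650, each with identical edges.

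The share of ZFP57 peaks with KAP1 differed by ZFP57 width. It was 10 of 802 at the minimum width of 300 bp (1.25%, 0.600 to 2.28%) and 19 of 394 at 450 bp (4.82%, 2.93 to 7.43%). It was 19 of 159 at 600 bp (11.9%, 7.35 to 18.0%) and 15 of 130 at 750 bp or more (11.5%, 6.60 to 18.3%). The interval at 300 bp lay below the other 3 given here, and those at 600 bp and 750 bp or more overlapped, so no further rise was detectable. Of the 16 ZFP57 peaks over 1500 bp, 1 met KAP1 (6.25%, 0.158 to 30.2%), the chromosome 9 locus.

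The share of KAP1 peaks with ZFP57 varied less by KAP1 width. ZFP57 was called at 6 of 1382 KAP1 peaks of 300 bp (0.434%, 0.159 to 0.943%), at 11 of 3217 KAP1 peaks of 450 bp (0.342%, 0.171 to 0.611%), at 19 of 3312 of 600 bp (0.574%, 0.346 to 0.894%) and at 27 of 2384 of 750 bp or more (1.13%, 0.748 to 1.64%), beside 0.612% overall. The intervals at 450 bp and at 750 bp or more did not overlap. Wider intervals also offer more bases to overlap, and the part of this in either trend was not tested.

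**Figure D3:**
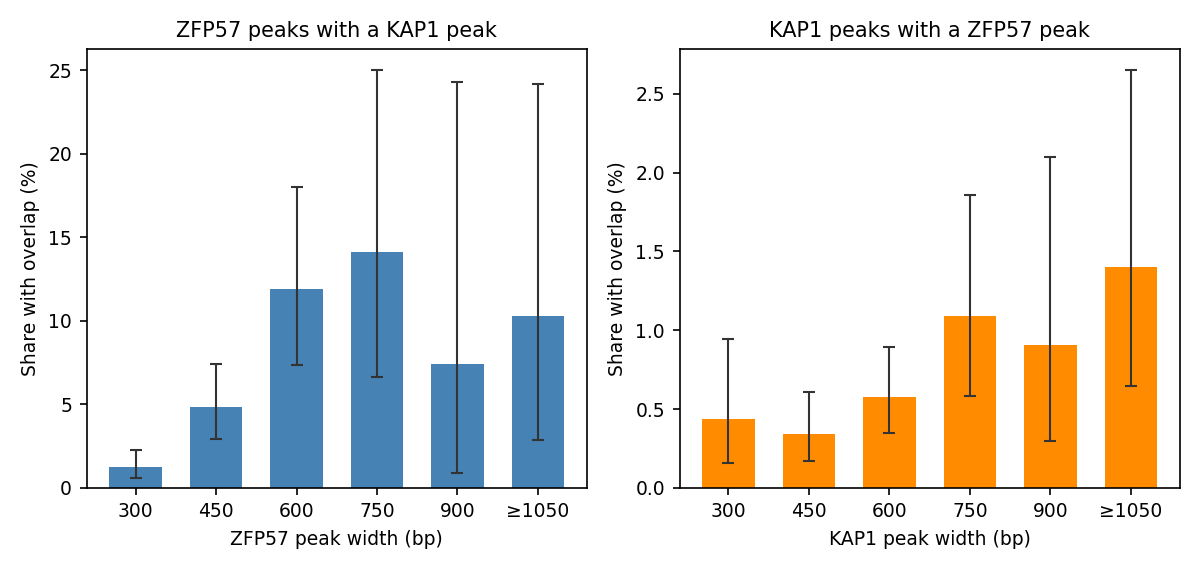
Bars give the share of A3 ZFP57 peaks with a KAP1 peak (left) and of KAP1 peaks with a ZFP57 peak (right) by the peak's own width in bp, with exact 95% intervals over peaks; the 2 vertical scales differ. The ZFP57 share is 1.25% at 300 bp and 11.9% at 600 bp.

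Away from the 63 loci, ZFP57 peaks were seldom close to KAP1. Over all 1485 ZFP57 peaks, with the 63 overlapping ones included at 0, the gap to the nearest KAP1 peak had a median of 134 kb. Its 95% interval was 124 to 148 kb and its quartiles 48 and 340 kb, and it reached 2.48 Mb. Only 15 peaks had a gap above 0 and up to 1 kb, and 75 more lay up to 10 kb away. A further 448 were 10 to 100 kb away, 847 were 100 kb to 1 Mb away and 37 were farther. The overlapping peaks thus outnumbered those that missed KAP1 by up to 1 kb by 63 to 15. The median gap from a KAP1 peak to the next KAP1 peak was 43.0 kb and from a ZFP57 peak to the next ZFP57 peak 366 kb, and from a KAP1 peak to the nearest ZFP57 peak it was 891 kb. These medians also move with the lengths of the lists.

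**Figure D4:**
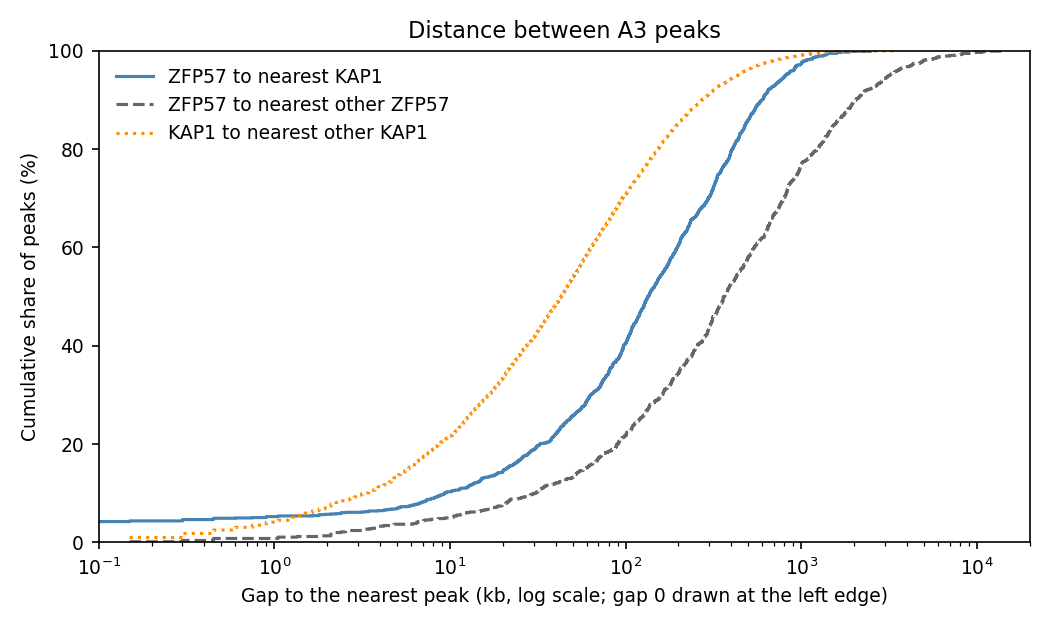
Curves give the cumulative share of A3 peaks by edge-to-edge gap in kb on a log axis, for ZFP57 to the nearest KAP1 (blue), ZFP57 to the nearest other ZFP57 (grey) and KAP1 to the nearest other KAP1 (orange). The blue curve starts at 4.24%, the overlapping peaks, reaches 10.3% at 10 kb and 40.5% at 100 kb.

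The nearest ZFP57 peaks without overlap began at 100408501 on chromosome 8 and at 74524801 on chromosome 18, each 150 bp, or 1 grid step, from KAP1. Next, at 300 bp, came those on chromosome 5 from 114482851, chromosome 9 from 88537351, chromosome 12 from 22776451 and chromosome 17 from 39829801. None of the 15 peaks within 1 kb lay in a control region window or met an E14 peak of either protein, while 42 of the 63 overlapping peaks met at least 1. Of all 1485 A3 ZFP57 peaks, 3.77% met E14 ZFP57, 4.44% met E14 KAP1 and 12 lay in windows. With only 15 peaks, a difference from these low shares was not detectable. The farthest ZFP57 peak from any KAP1 was on chromosome 6 at 42974101 to 42974850.

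Narrow ZFP57 peaks also lay farther from KAP1. The median gap was 172 kb for peaks of 300 bp (152 to 199 kb), 117 kb at 450 bp (102 to 136 kb), 98.0 kb at 600 bp (70.0 to 130 kb) and 71.2 kb at 750 bp or more (40.6 to 95.7 kb), overlapping peaks included at 0. The first interval lay above the other 3, while neighbours among those 3 overlapped. ZFP57 peaks also called in E14 had a median gap of 0, because 38 of the 56 overlapped KAP1, and those not called in E14 had one of 142 kb (130 to 157 kb).

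The 4 chromosomes with the most A3 ZFP57 peaks each had a share of them with KAP1 below the overall 4.24%. Of their intervals only that of chromosome 1 excluded this value. Chromosomes 3, 5, 9, 10, 16, 17, 18 and 19 also had shares below 4.24%, so this was not particular to the 4. Chromosome 1 held 203 ZFP57 peaks, the most of any, and 2 of them met KAP1 (0.985%, 0.120 to 3.51%). Chromosome 14 held 158 against 403 KAP1 peaks, the highest ZFP57 share relative to its KAP1 share among autosomes at 2.72 times, and 4 met KAP1 (2.53%, 0.694 to 6.35%). Chromosomes 2 and 8 had 161 and 134 ZFP57 peaks, with 5 joint loci (3.11%, 1.02 to 7.10%) and 4 (2.99%, 0.819 to 7.47%). Chromosome 7, where Peg3, Snrpn, Inpp5f_v2 and Kcnq1ot1 lie, had 9 joint loci among 70 ZFP57 peaks (12.9%, 6.05 to 23.0%), and chromosome 12 had 7 among 59 (11.9%, 4.91 to 22.9%). Chromosome 11 had the lowest ZFP57 share relative to KAP1, 0.339 times, with 32 ZFP57 and 654 KAP1 peaks, and 3 joint loci.

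Chromosomes 3 and 19 had no joint locus among 89 and 26 ZFP57 peaks, where a limit of 3 counts is 3.37% and 11.5% and the exact intervals reach 4.06% and 13.2%. For chromosome 19 both limits lie above the overall 4.24%, so a difference was not detectable. Chromosome X had 4 joint loci among 37 ZFP57 peaks (10.8%, 3.03 to 25.4%) and chromosome Y 1 among 17, with 9 KAP1 peaks. Every pair of chromosomes was compared by interval, and no test was run. The intervals of chromosomes 1 and 3 lay below those of chromosomes 7 and 12, and those of all other pairs of chromosomes overlapped. The gap to KAP1 did not follow the same order, with medians of 123 kb on chromosome 1, 176 kb on chromosome 14, 120 kb on chromosome 7 and 301 kb on chromosome X.

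**Figure D5:**
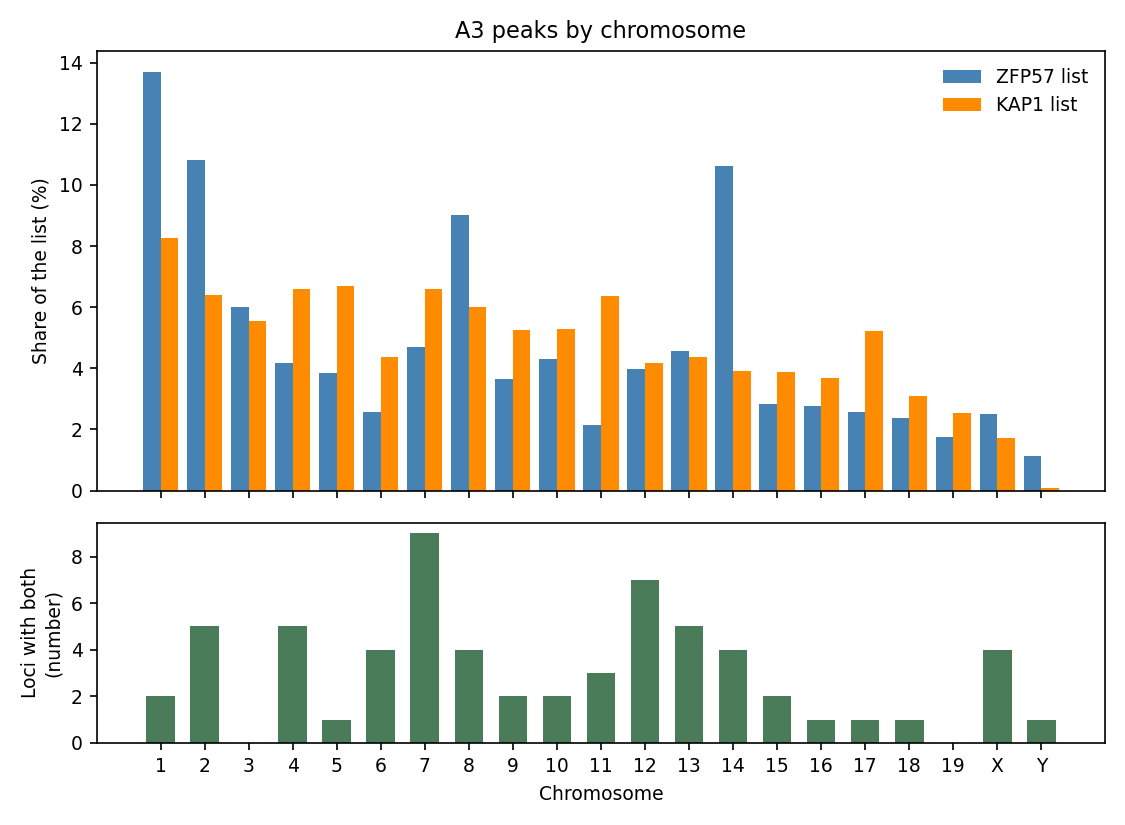
The upper bars give each chromosome's share of the A3 ZFP57 list (blue) and KAP1 list (orange) in percent, and the lower bars the number of loci with both proteins. Chromosomes 1, 2, 8 and 14 stand out in the ZFP57 list, while chromosomes 7 and 12 hold the most joint loci, with 9 and 7.

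A total of 18 A3 ZFP57 peaks had an E14 ZFP57 peak but no A3 KAP1 peak. KAP1 was called in E14 at 13 of these, beside 51 of all 56 A3 ZFP57 peaks with an E14 ZFP57 peak. On chromosome 9, 3 of the 18 lay between 3011101 and 3038400, with widths of 2400, 9000 and 3900 bp, and the chromosome 1 peak at 87479101 to 87498150 was 19050 bp wide and 15 kb from the nearest A3 KAP1 peak. The other 14 were 450 to 750 bp wide. The closest to KAP1 among these 14 was on chromosome Y at 1592851 to 1593450, with a gap of 5.25 kb, and the farthest on chromosome 4 at 70038901 to 70039500, with 917 kb. None lay in a control region window.

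In the reverse case, 59 of the 10232 A3 KAP1 peaks without A3 ZFP57 (0.577%, 0.439 to 0.743%) lay where E14 had ZFP57, beside 0.942% of all A3 KAP1 peaks. They lay on 20 chromosomes, with a median width of 450 bp, and Mest and Zrsr1/Commd1 were the 2 in control region windows. E14 also had KAP1 at 43 of the 59. They were picked for an E14 ZFP57 peak, so the 5.96% of all A3 KAP1 peaks with E14 KAP1 is not a like comparison. Among the 63 pairs, all 38 that met E14 ZFP57 also met E14 KAP1. The closest A3 ZFP57 peak to any of the 59 was 11.8 kb away and the median gap was 816 kb.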

How the data were processed

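Peaks were called by the authors, with 1 list per library. The deposited lists have 3 columns for chromosome, start and end and carry no score or count. Per the submitters' processing notes, CASAVA 1.8.2, Bowtie 0.12.7, SAMtools 0.1.18, bedtools 2.14.3-1 and build mm9 were used. For the peak caller, its threshold and its use of the input, nothing was given in the sources used here, and the depth is unknown. All ends were multiples of 150 and all starts were 1 more than one, so 1 was subtracted from each start. Overlapping or touching peaks were merged, which removed 1 of 1486 deposited A3 ZFP57 peaks and 53 of 10348 A3 KAP1 peaks. Overlap needed at least 1 bp, and gaps were measured between edges. No mm9 genome or annotation was used, so exon and intron positions are not given. Control regions were named from hand-written mm9 windows.

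Named loci were all windows, the 10 pairs sharing the most bp, the 5 with the largest offset and the 5 nearest peaks without overlap, to which a tied sixth was added. All other loci named by position, the 7 wide pairs outside windows, the E14 comparison by width and the promoter genes were chosen after their values were seen. Members and lists were chosen with earlier results of these data known. The interval of a median comes from order statistics. Promoter windows were searched for the hexamer on both strands. With 1 library per group no test was made. Overlap and gap code was checked on simulated data against bedtools 2.31.1. Scripts used scipy 1.17.1, numpy 2.4.6, pandas 2.3.3 and matplotlib 3.10.9 under Python 3.11.15.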

Additional observations from a re-analysis of the deposited data

How the results depend on the processing

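The 6 main values were recomputed under up to 6 alternatives: reciprocal overlap of 50%, peaks at most 1 kb apart, the wider part of each list (ZFP57 from 450 bp, KAP1 from 600 bp), autosomes only, no merging, and no peaks over 1500 bp. The median gap does not use the overlap rule, so the first 2 do not apply to it. Of 34 recomputed values 31 stayed within the 95% interval of the reported value. The other 3 moved. In the wider part of each list 6.00% of ZFP57 peaks overlapped KAP1 and the median gap was 187 kb; that part holds fewer KAP1 peaks. When peaks up to 1 kb apart counted as pairs, 74.4% had midpoints within 150 bp, since the 15 added peaks do not overlap. Both proteins met at 11 of the 23 control region windows under reciprocal overlap and at 12 under the other 5 alternatives. Width and offset are known to 150 bp only. No paired analysis was possible because each group has 1 library.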

Other observations

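KRAB zinc finger gene clusters, whose genes are known KAP1 targets, were looked at in 3 broad windows named from background knowledge. The distal chromosome 2 cluster, a window of 3 Mb, held 18 A3 KAP1 peaks and no ZFP57 peak. The distal chromosome 4 cluster (2.60 Mb) held 31 KAP1 peaks and 4 ZFP57 peaks, with no overlap; the ZFP57 peaks were 600 to 6750 bp wide and 12.8 to 74.8 kb from KAP1. The chromosome 13 cluster (7 Mb) held 62 KAP1 peaks and 10 ZFP57 peaks, of which 1 overlapped KAP1, at 66538651 to 66538950. Over the whole list 4.24% of ZFP57 peaks did, and with so few ZFP57 peaks a difference from that share was not detectable in these windows.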
